A study of Mus musculus with 12 samples.

Results

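The transcripts described here encode 10 heat shock chaperones and co-chaperones of the cytosol and the mitochondria, chosen by gene symbol among the 20632 genes of the deposited count tables: Hspa1a, Hspa1b, Hspa8, Hsph1, Dnajb1, Hsp90aa1, Hsp90ab1, Hspd1, Hspe1 and Hspb1. They were measured by 3' RNA sequencing (QuantSeq), which yields 1 fragment near the 3' end of each transcript, in the white fat around the gonads and uterus of mice at E17.5 of pregnancy, 12 in all, with 4 in each of 3 groups. KO Treg mice carried the knockout genotype, labelled Tnfrsf11a (Rank) with Foxn1 Cre, and received the treatment labelled Treg. KO vehicle mice had the same genotype and received vehicle, and WT vehicle mice were labelled Foxn1 Cre- (wildtype) and received vehicle. Tnfrsf11a encodes the receptor RANK, and Foxn1 is a transcription factor of thymic epithelium, so the named Cre driver belongs to another tissue than the fat measured here. The labels give no strain, maternal age, dose or number of doses, and in such bulk tissue fewer cells of a type and less RNA per cell cannot be told apart.

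The KO Treg libraries held 6583263 to 8746946 counts, the KO vehicle libraries 8350348 to 9617503 and the WT vehicle libraries 5551967 to 12972655. All 10 genes passed the filter on low counts and were tested among 12175 genes. The adipocyte marker Adipoq was at 3881 to 5993 CPM (counts scaled to a common library total) in all 12 libraries. Foxn1 had 0 counts in every library, and Tnfrsf11a averaged 7.78 ± 1.92 CPM in KO Treg, 7.61 ± 1.11 in KO vehicle and 8.20 ± 2.51 in WT vehicle (SD, n = 4 each), which checks nothing about a deletion made in other cells. Some libraries stood apart in markers of other tissue: Ucp1, the uncoupling protein of brown fat, was at 1968 CPM in WT vehicle library 1, at 779 and 216 CPM in KO vehicle libraries 2 and 3, and at 47.4 CPM or less in the other 9. A list of 6 placental genes summed to 244 CPM in KO Treg library 2 and 90.4 CPM in KO vehicle library 1, against at most 31.9 CPM elsewhere. The animal numbers in the labels form a lower and a higher series, and all 4 KO vehicle mice belong to the lower one.

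Heat shock proteins of the HSP70 family bind exposed stretches of unfolded proteins in cycles of ATP binding and hydrolysis, with J-domain proteins such as DNAJB1 delivering substrates and HSP110 proteins such as HSPH1 exchanging the nucleotide. HSP90 acts later, on folding kinases and nuclear receptors, and in mitochondria the chaperonin HSP60 (Hspd1) folds imported proteins in a chamber closed by HSP10 (Hspe1). Under proteotoxic stress the transcription factor HSF1 binds heat shock elements, inverted repeats of a short unit, and raises the inducible members, while the constitutive members are abundant in unstressed cells.

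RefSeq promoter windows (GRCm38.p6, 250 bases before to 50 after a transcription start) were found for 7 of the 10 genes: Hspa1a, Hspa1b, Hsph1, Dnajb1, Hspd1, Hspe1 and Hspb1. They were searched on both strands for 2 adjoining units of a heat shock element, GAANNTTC or TTCNNGAA, and for 3 alternating units, which hold 2 overlapping copies of the shorter form. Of these genes, 6 held the shorter form and 3 the longer, where 17% of all 27025 genes with a window held the shorter and 0.662% the longer. The counts are not of independent sequences. Hspe1 and Hspd1 share the same run of elements, and the windows of Hspa1a and Hspa1b differ at 4 of 300 bases. These letters are a description of the sequence, not evidence of binding in this fat. The stretches below are shown because they hold the elements of the inducible and mitochondrial genes whose levels are compared here, with the matching letters in capitals, 5′ to 3′ on the gene's own strand.
Hspe1: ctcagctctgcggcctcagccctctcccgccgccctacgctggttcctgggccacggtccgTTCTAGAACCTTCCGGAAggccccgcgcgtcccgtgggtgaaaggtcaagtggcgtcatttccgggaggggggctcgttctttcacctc
Hsph1: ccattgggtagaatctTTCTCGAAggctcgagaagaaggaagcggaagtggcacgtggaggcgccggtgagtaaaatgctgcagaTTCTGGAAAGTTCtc
Hspa1a: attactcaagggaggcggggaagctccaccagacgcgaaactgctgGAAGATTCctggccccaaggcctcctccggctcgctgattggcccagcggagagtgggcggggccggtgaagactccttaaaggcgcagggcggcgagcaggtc
Hspa1b: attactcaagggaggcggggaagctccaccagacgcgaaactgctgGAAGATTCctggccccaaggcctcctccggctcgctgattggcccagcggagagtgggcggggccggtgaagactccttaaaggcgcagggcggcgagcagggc
Hspb1: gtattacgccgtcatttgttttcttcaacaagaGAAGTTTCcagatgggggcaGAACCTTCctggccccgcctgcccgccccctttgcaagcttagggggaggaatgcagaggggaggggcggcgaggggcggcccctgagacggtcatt

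The Hspe1 stretch (chr1:55087998-55088147, plus strand) holds an 18-base run of elements that starts 89 bases before the Hspe1 start. Hspd1 lies head to head with it on the minus strand, and the same 18 bases, read from the other side, begin 144 bases before an Hspd1 start. The window around another Hspd1 start in RefSeq held no match, and the same bases lie downstream of that start. The Hsph1 stretch (chr5:149636286-149636385, minus strand) holds a shorter form 54 bases before an Hsph1 start and a longer form 15 bases after it. From another Hsph1 start in RefSeq, the same elements lie 33 bases before and 36 bases after. The Hspa1a (chr17:34972157-34972306) and Hspa1b (chr17:34959239-34959388) stretches, both on the minus strand, differ at a single base, T149G, counted from 1 at the 5′ end with the Hspa1a base first, and each holds 1 shorter form 104 bases before the start. The Hspb1 stretch (chr5:135887769-135887918, plus strand) holds 2 shorter forms, 117 and 97 bases before the start. No match was found in the windows of Dnajb1.

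Since each transcript gives 1 fragment whatever its length, the genes can be ordered by CPM without dividing by length. Hsp90ab1 averaged 2244 CPM over the 12 libraries, Hspd1 1356, Hsp90aa1 682, Hspa8 562, Hspe1 356 and Hspb1 306 CPM. Hsph1 averaged 42.7 CPM and Dnajb1 40.5 CPM, and the inducible pair Hspa1a and Hspa1b 5.70 and 5.41 CPM. Neighbours in this order overlapped in their ranges over the libraries, except that Hspb1 (195 to 566 CPM) lay above Hsph1 (22.8 to 70.6 CPM) and Dnajb1 (30.7 to 63.7 CPM) above Hspa1a (3.72 to 9.70 CPM) without overlap. Together the 10 genes took 0.421 to 0.544% of the counts in KO Treg, 0.554 to 0.797% in KO vehicle and 0.486 to 0.673% in WT vehicle. For Hspa1a and Hspa1b the level rests on 20 to 68 counts per library, while every other member had at least 127.

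**Figure D1:**
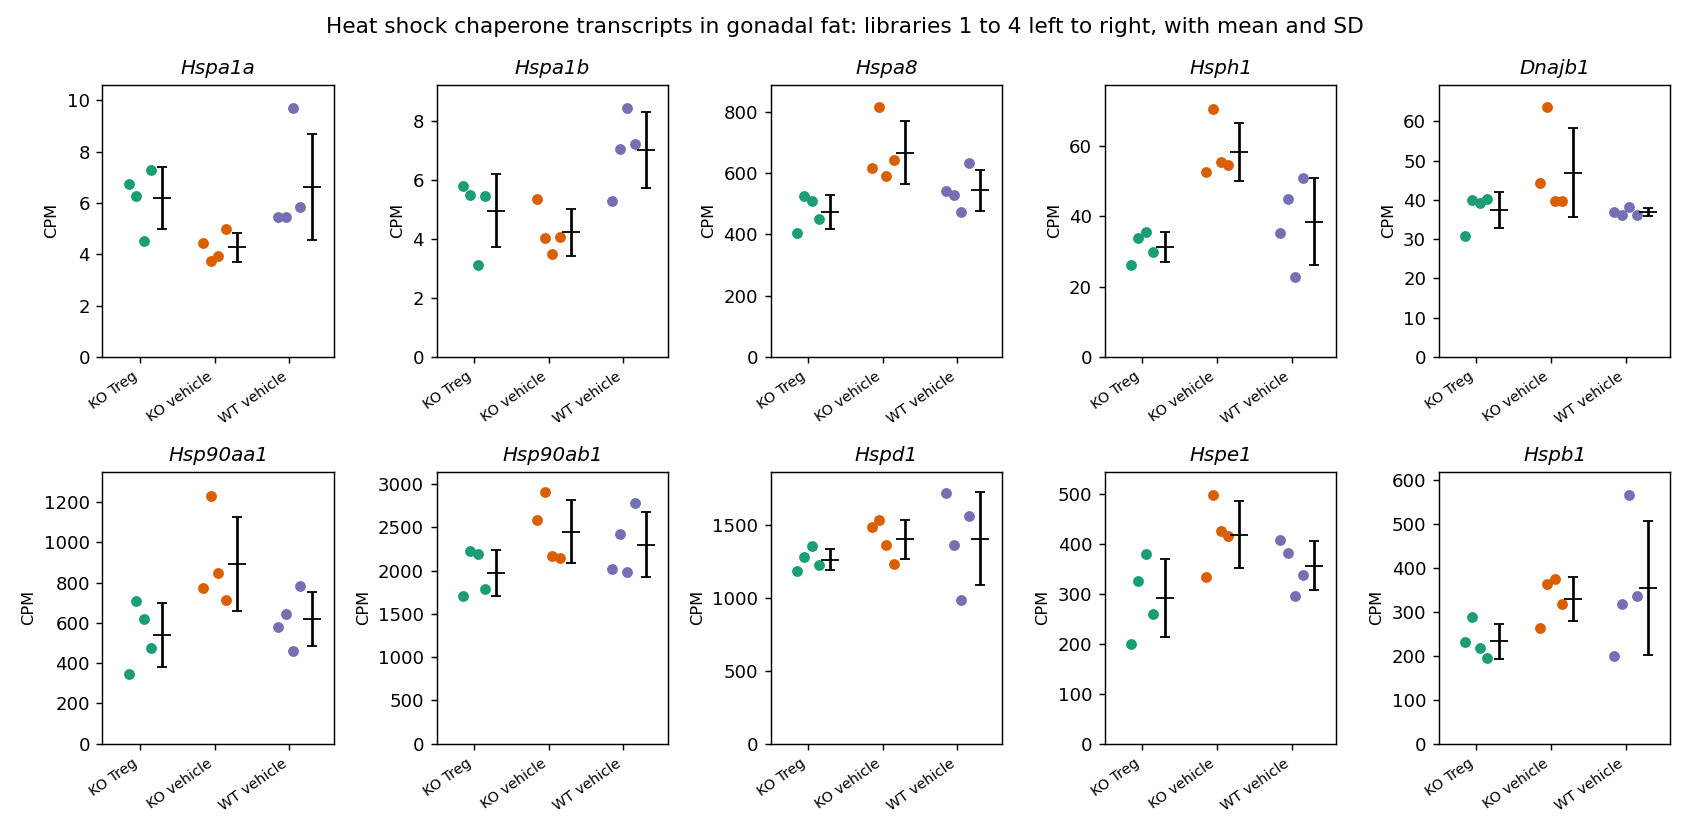
Transcript level (CPM) of the 10 chaperone genes, 1 panel each, in the 4 libraries of KO Treg, KO vehicle and WT vehicle fat (libraries 1 to 4 left to right), with the group mean and SD beside them. Hsph1 was at 26.1 to 35.4 CPM in KO Treg and 52.5 to 70.6 CPM in KO vehicle, while Hspa1a was at 3.72 to 4.98 CPM in KO vehicle and at 5.47 to 9.70 CPM in WT vehicle.

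In KO Treg against KO vehicle fat, the comparison that asks what the treatment did in the knockout, 8 of the 10 genes were lower on average and the pair Hspa1a and Hspa1b higher. Hsph1 differed most, at 31.3 ± 4.23 CPM in KO Treg and 58.3 ± 8.31 CPM in KO vehicle, followed by Hsp90aa1 at 538 ± 160 and 891 ± 233 CPM (SD, n = 4 each). None of the 10 passed the edgeR quasi-likelihood test at an adjusted p under 0.05, where 0.00821% of all tested genes did, a single gene. DESeq2 called 1 of the 10, Hsph1 (log2 fold change −0.89, adjusted p = 0.0210), where it called 0.38% of the genes it gave an adjusted p, and limma voom called 0. At an unadjusted p under 0.05, edgeR gave 1 member as higher, where 3.69% of all genes were, and 4 as lower, where 5.08% were. The groups did not overlap for 3 members, all lower (Hspa8, Hsph1 and Hsp90aa1), against a background of 3.03%, and for 0 members higher, against 2.01%. The median log2 fold change of the 10 was −0.41, and −0.0018 over all genes. Macrophage markers, 5 of 6 listed genes found and none at 0, were all below 0 as well (median −0.25), with a sum of 565 to 824 CPM in KO Treg and 696 to 935.5 CPM in KO vehicle. Their part in the chaperone values was not tested.

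In KO vehicle against WT vehicle fat, which compares the genotypes, 6 of the 10 genes were higher on average and 4 lower. Hsph1 averaged 58.3 ± 8.31 CPM in KO vehicle and 38.5 ± 12.3 CPM in WT vehicle, and Hspa1b 4.24 ± 0.797 and 7.01 ± 1.29 CPM (SD, n = 4 each). None passed the edgeR test (0.279% of all genes did), and DESeq2 and limma voom called 0 as well. At an unadjusted p under 0.05 edgeR gave 3 members as higher (Hsph1, Hsp90aa1 and Dnajb1; background 6.98%) and 2 as lower (Hspa1a and Hspa1b; background 5.45%). Hsph1 and Dnajb1 were higher without overlap, 2 members where 4.17% of all genes were, and Hspa1a lower, 1 member where 2.33% were. The median log2 fold change was 0.16, and −0.0039 over all genes. The same 5 macrophage markers were all above 0 (median 0.24), with a sum of 600.3 to 740.4 CPM in WT vehicle, and Cd68 averaged 38.5 CPM in KO vehicle and 23.4 CPM in WT vehicle without overlap (edgeR adjusted p = 0.146). Both comparisons share the 4 KO vehicle libraries, so a deviation of those libraries moves the values of both in opposite directions.

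KO Treg and WT vehicle fat overlapped for all 10 genes. By edgeR 0 members were called (0% of all genes), and 0 by DESeq2 and by limma voom, with an adjusted p that rounds to 1 for each in the edgeR fit. Without overlap, 0.813% of all genes were higher and 0.821% lower. At an unadjusted p under 0.05, 0 members were higher (background 1.54%) and 1 was lower (background 1.32%), Hspb1 at 233 ± 39.8 CPM in KO Treg and 355 ± 153 CPM in WT vehicle. Its log2 fold change was −0.61, and −0.29 without WT vehicle library 3 and 0.0071 in the lower number series. On average 9 members were lower in KO Treg, with a median log2 fold change of −0.21.

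**Figure D2:**
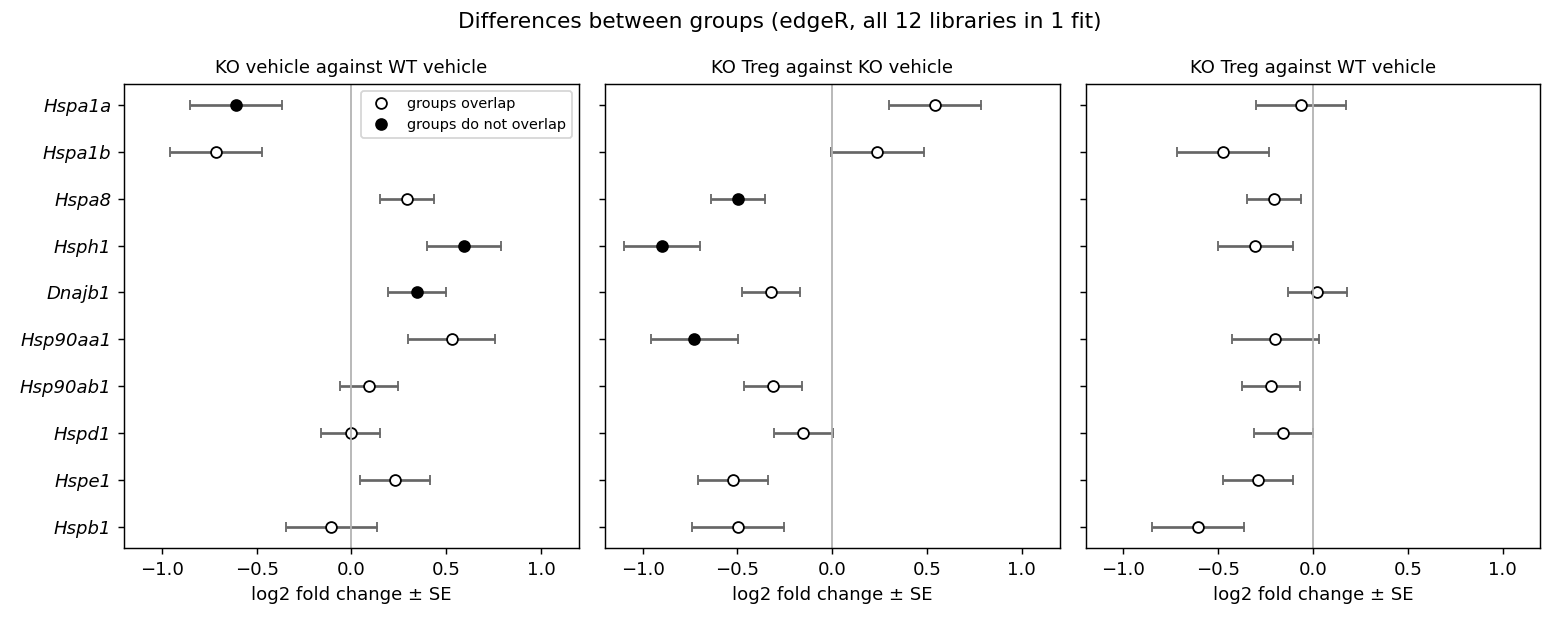
Log2 fold change with its standard error (edgeR, all 12 libraries in 1 fit) of each chaperone gene in the 3 comparisons, where filled points mark genes whose 2 groups do not overlap. Hspa1a and Hspa1b lie to the left of 0 in KO vehicle against WT vehicle and to the right in KO Treg against KO vehicle, and Hsph1 lies on the other side in each (0.59 and −0.90).

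Hsph1, the HSP110 nucleotide exchange factor, had 26.1, 33.9, 35.4 and 29.7 CPM in KO Treg libraries 1 to 4, 52.5, 70.6, 55.5 and 54.5 CPM in KO vehicle, and 35.1, 45.01, 22.8 and 50.9 CPM in WT vehicle. All 4 KO vehicle libraries lay above the other 8. The log2 fold change was −0.90 ± 0.20 (SE) in KO Treg against KO vehicle (edgeR adjusted p = 0.248), with the 14th lowest p of the 12175 genes, and 0.59 ± 0.20 in KO vehicle against WT vehicle (adjusted p = 0.195). Over 24 other settings the first ran from −0.99 to −0.76 and the second from 0.40 to 0.76. In the lower number series alone, with 2 KO Treg and 2 WT vehicle libraries, they were −0.96 and 0.53.

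Hspa8, the constitutive HSP70 (HSC70), had 406, 525, 509.9 and 450.4 CPM in KO Treg, 618, 818, 591 and 643 CPM in KO vehicle, and 541, 529, 474 and 634 CPM in WT vehicle. Every KO Treg library was below every KO vehicle library, and 1 WT vehicle library (634 CPM) fell within the range of KO vehicle. The log2 fold change was −0.50 ± 0.14 in KO Treg against KO vehicle (edgeR adjusted p = 0.306) and 0.29 ± 0.14 in KO vehicle against WT vehicle (adjusted p = 0.414). Without KO vehicle library 2 these were −0.37 and 0.16. The level of Hspa8 is uncertain, since 82.5% of the 50-base windows in the last 300 bases of its transcript also occur in transcripts of 11 other genes.

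Dnajb1, the J-domain partner that delivers substrates to HSP70, had 30.7, 39.9, 39.2 and 40.3 CPM in KO Treg, 44.4, 63.7, 39.7 and 39.8 CPM in KO vehicle, and 37.0, 36.2, 38.3 and 36.2 CPM in WT vehicle. KO vehicle library 2 stood above all others and KO Treg library 1 below them, with the lowest KO vehicle library (39.7 CPM) just above the highest WT vehicle library (38.3 CPM). The log2 fold change was −0.32 ± 0.15 in KO Treg against KO vehicle and 0.35 ± 0.15 in KO vehicle against WT vehicle (edgeR adjusted p = 0.575 and 0.366). Without KO vehicle library 2 these were −0.12 and 0.15.

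The inducible HSP70 genes ran the other way. Hspa1a had 6.76, 6.28, 4.51 and 7.28 CPM in KO Treg, 4.45, 3.72, 3.94 and 4.98 CPM in KO vehicle, and 5.47, 5.47, 9.70 and 5.83 CPM in WT vehicle. All 4 KO vehicle libraries were below all 4 WT vehicle libraries, and 1 KO Treg library (4.51 CPM) lay within the KO vehicle range. Hspa1b, its near-identical neighbour, had 5.81, 5.48, 3.11 and 5.46 CPM in KO Treg, 5.37, 4.03, 3.49 and 4.06 CPM in KO vehicle, and 5.31, 7.07, 8.44 and 7.22 CPM in WT vehicle. Its KO vehicle and WT vehicle groups overlapped by 1 library each, and KO Treg library 3 was low for both genes.

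For Hspa1a the log2 fold change was −0.61 ± 0.24 in KO vehicle against WT vehicle (edgeR adjusted p = 0.299) and 0.54 ± 0.24 in KO Treg against KO vehicle (adjusted p = 0.531). For Hspa1b these were −0.71 ± 0.24 (adjusted p = 0.207) and 0.24 ± 0.25 (adjusted p = 0.856). Without WT vehicle library 3, where both genes were highest, the first comparison of Hspa1a gave −0.40. No 50-base window in the last 300 bases of either transcript occurs in that of the other gene, but the exons of Hspa1a overlap Gm20481 on the opposite strand, whose reads cannot be told apart without a stated strand setting.

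HSP90 is encoded by an inducible gene, Hsp90aa1, and a constitutive one, Hsp90ab1. Hsp90aa1 had 348, 709, 620.2 and 474 CPM in KO Treg, 772, 1230, 848 and 713 CPM in KO vehicle, and 581, 645, 459.6 and 783 CPM in WT vehicle. The highest KO Treg library (709 CPM) was barely below the lowest KO vehicle library (713 CPM), and KO vehicle library 2 and KO Treg library 1 were the extremes. The log2 fold change was −0.73 ± 0.23 in KO Treg against KO vehicle (edgeR adjusted p = 0.356) and 0.53 ± 0.23 in KO vehicle against WT vehicle (adjusted p = 0.350). Without KO vehicle library 2 these were −0.51 and 0.32.

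Hsp90ab1 had 1703, 2224, 2189 and 1792 CPM in KO Treg, 2586, 2907, 2166 and 2150 CPM in KO vehicle, and 2024, 2419, 1985 and 2782 CPM in WT vehicle. All 3 groups overlapped. The log2 fold change was −0.31 ± 0.15 in KO Treg against KO vehicle and 0.091 ± 0.15 in KO vehicle against WT vehicle (edgeR adjusted p = 0.598 and 0.869), and without KO vehicle library 2 the second turned to −0.018.

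In mitochondria, Hspd1 (HSP60) had 1184, 1281, 1353 and 1227 CPM in KO Treg, 1481, 1532, 1361 and 1233 CPM in KO vehicle, and 1714, 1361, 984 and 1562 CPM in WT vehicle. The WT vehicle libraries held both its highest and its lowest value. Hspe1 (HSP10) had 200.3, 325, 381 and 260.3 CPM in KO Treg, 334.5, 499, 425 and 416 CPM in KO vehicle, and 408.5, 383, 296 and 338 CPM in WT vehicle. Only KO Treg library 3 (381 CPM) reached into the KO vehicle range. For Hspe1 the log2 fold change was −0.52 ± 0.18 in KO Treg against KO vehicle (edgeR adjusted p = 0.428), and for Hspd1 −0.15 ± 0.15 (adjusted p = 0.852). In KO vehicle against WT vehicle they were 0.23 ± 0.18 and −0.0038 ± 0.15 (adjusted p = 0.670 and 0.998), and Hspe1 gave 0.12 without KO vehicle library 2 and 0.073 in the lower number series. For Hspe1, 43.8% of the 50-base windows at the transcript's end also occur in 4 other genes, and its exons overlap those of Hspd1 on the opposite strand.

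Hspb1 (HSP27 in human cells, HSP25 in mouse) is a small heat shock protein that holds unfolded proteins without using ATP and is abundant in muscle. It had 231, 289, 218.5 and 195 CPM in KO Treg, 264, 363, 374 and 319 CPM in KO vehicle, and 200.5, 318, 566 and 337 CPM in WT vehicle. WT vehicle library 3 was far above and library 1 below every KO vehicle library. Of the 50-base windows in the last 300 bases of the Hspb1 transcript, 19.1% also occur in 1 other gene, Hsp25-ps1. The log2 fold change was −0.50 ± 0.24 in KO Treg against KO vehicle (edgeR adjusted p = 0.597) and −0.11 ± 0.24 in KO vehicle against WT vehicle (adjusted p = 0.910), and the second turned to 0.19 without WT vehicle library 3.

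Smooth muscle genes were lowest and highest in the same WT vehicle libraries as Hspb1. The 9 genes of that list, none at 0, summed to 677 to 2357 CPM in KO Treg, 688 to 1672 CPM in KO vehicle and 625 to 3744 CPM in WT vehicle, with WT vehicle library 1 at the low end and library 3 at the high end. In KO vehicle the sum and Hspb1 were both lowest in library 1, but the sum was highest in library 4 and Hspb1 in library 3. In KO Treg both were highest in library 2, but the sum was lowest in library 3 and Hspb1 in library 4. In KO Treg against KO vehicle, 8 of the 9 were above 0 (median 0.50), while Hspb1 was below 0 (log2 fold change −0.50). The part of smooth muscle in the values of Hspb1 was not tested. The 5 brown fat genes summed to 114 to 454 CPM in KO Treg, 58.5 to 2227 CPM in KO vehicle and 134 to 5681 CPM in WT vehicle. The highest of these sums was in WT vehicle library 1, the library with the highest Hspd1, and the next in KO vehicle library 2, which had the highest value of 6 members. Without the 3 libraries of 100 CPM or more of Ucp1, Hsph1 differed by −0.76 in KO Treg against KO vehicle and by 0.41 in KO vehicle against WT vehicle on the log2 scale, and Hsp90aa1 by −0.45 and 0.22.

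Ratios of partner transcripts within a library do not depend on scaling, and were chosen after the levels were seen, so they are given without a test. Hspa1a and Hspa1b together made 1.49 to 3.09% of the Hspa8 count in KO Treg, 0.948 to 1.59% in KO vehicle and 1.99 to 3.83% in WT vehicle, without overlap between KO vehicle and WT vehicle. Hsp90aa1 made 20.4 to 31.9% of the Hsp90ab1 count in KO Treg, 29.9 to 42.3% in KO vehicle and 23.2 to 28.7% in WT vehicle, again without overlap between KO vehicle and WT vehicle. In these libraries the Hsp90aa1 ratio was thus higher, and the ratio of Hspa1a plus Hspa1b lower, in KO vehicle than in WT vehicle. The nearest values of the Hsp90aa1 ratio were 29.9 and 28.7%, and ratios to Hspa8 share the uncertainty of its level. Hsph1 made 6.42 to 6.95% of the Hspa8 count in KO Treg, 8.48 to 9.39% in KO vehicle and 4.82 to 8.50% in WT vehicle, and here KO Treg and KO vehicle did not overlap. Hspe1 made 16.9 to 28.1% of the Hspd1 count in KO Treg, 22.6 to 33.7% in KO vehicle and 21.6 to 30.1% in WT vehicle, with all groups overlapping.

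**Figure D3:**
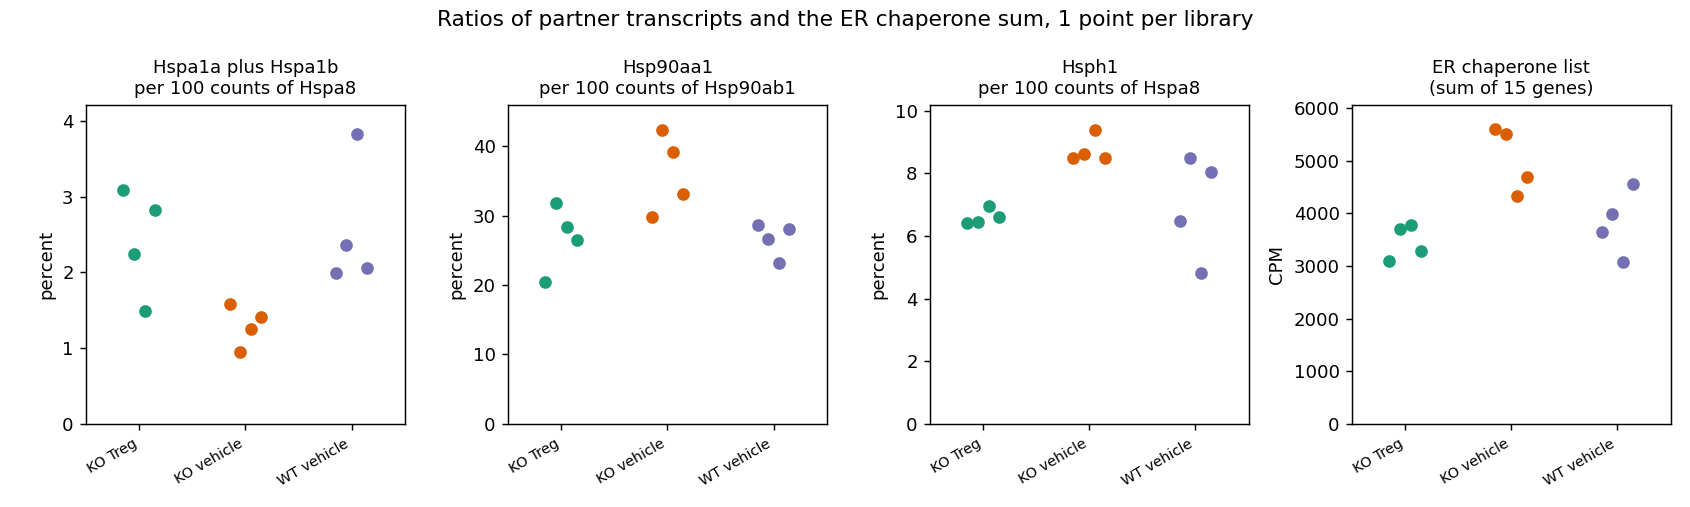
Counts of Hspa1a plus Hspa1b and of Hsph1 in percent of Hspa8, counts of Hsp90aa1 in percent of Hsp90ab1, and the summed level (CPM) of 15 chaperones of the endoplasmic reticulum, 1 point per library in KO Treg, KO vehicle and WT vehicle fat. KO vehicle (0.948 to 1.59%) lies below WT vehicle (1.99 to 3.83%) for Hspa1a plus Hspa1b, and KO Treg (3101 to 3775 CPM) lies below KO vehicle (4325 to 5593 CPM) for the sum.

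Across the 12 libraries, the relation of every pair of members was computed on log2 CPM (45 pairs, permutation p with 100000 resamples, adjusted by Benjamini-Hochberg over the 45). Libraries were permuted without regard to group, so differences between groups enter these p-values, and values within groups carry no p. Among Hspa8, Hsph1, Dnajb1, Hsp90aa1, Hsp90ab1, Hspd1 and Hspe1, all 21 pairs had a Pearson's r above 0, from 0.297 to 0.948 with a median of 0.761. Of these, 13 passed an adjusted p of 0.05 (10 by Spearman's rho). These 7 are the members left when Hspa1a, Hspa1b and Hspb1 are set aside. That division was not planned before the relations were computed, so the shared sign is a description and no independent support. Computed on deviations from the group means, these 21 ran from 0.243 to 0.915. Hspa8 and Hsp90aa1 were closest, with r = 0.948 (permutation p = 2e-05, adjusted 0.0009) and rho = 0.881 (p = 0.00037, adjusted 0.00416). Without the 2 libraries farthest in Hspa8, KO vehicle 2 and KO Treg 1, r was 0.860, and within groups 0.915. For Hspa8 and Dnajb1, r was 0.774 with those 2 libraries and 0.116 without, and rho was 0.385 (adjusted permutation p = 0.0157 for r and 0.299 for rho). The same 2 libraries were farthest for Dnajb1 with Hsp90aa1, Hsp90ab1, Hspe1 and Hspd1, where r without them ran from −0.22 to 0.18. For Hsph1 and Dnajb1 r was 0.617, and 0.496 without KO vehicle library 2 and WT vehicle library 3.

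Hspa1a ran against this set. With Hsph1 its r was −0.858 (permutation p = 0.00043, adjusted 0.00323) and rho −0.909 (p = 0.0001, adjusted 0.00225), and r was −0.726 without WT vehicle library 3 and KO vehicle library 2. On deviations from group means r was −0.786, and in the lower number series −0.933. Of the 16 pairs of Hspa1a or Hspa1b with another member, 14 had r below 0 and 5 passed (4 by Spearman's rho), all of them pairs of Hspa1a. Hspa1a and Hspa1b followed each other with r = 0.758 (permutation p = 0.00456, adjusted 0.0157) and rho = 0.755 (p = 0.00657, adjusted 0.0296), and with r = 0.628 without the same 2 libraries. No pair with Hspb1 passed. CPM values of a library share its total, so a rise of abundant transcripts lowers all others slightly.

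**Figure D4:**
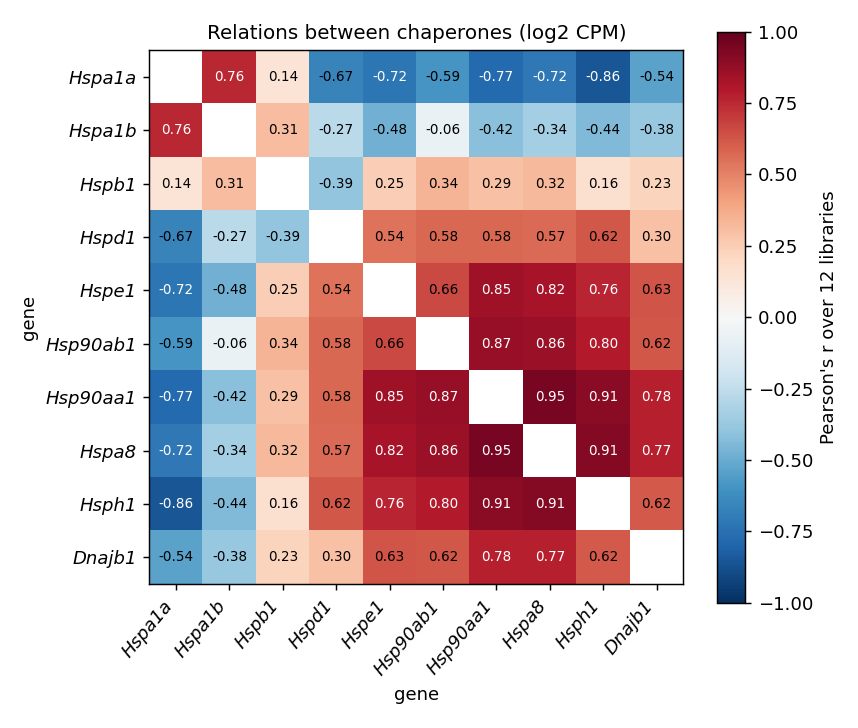
Pearson's r between log2 CPM of each pair of chaperone genes over the 12 libraries. Blue cells mark r below 0, which fill most of the rows of Hspa1a and Hspa1b, and the darkest red cell off the diagonal is Hspa8 with Hsp90aa1 (0.948).

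**Figure D5:**
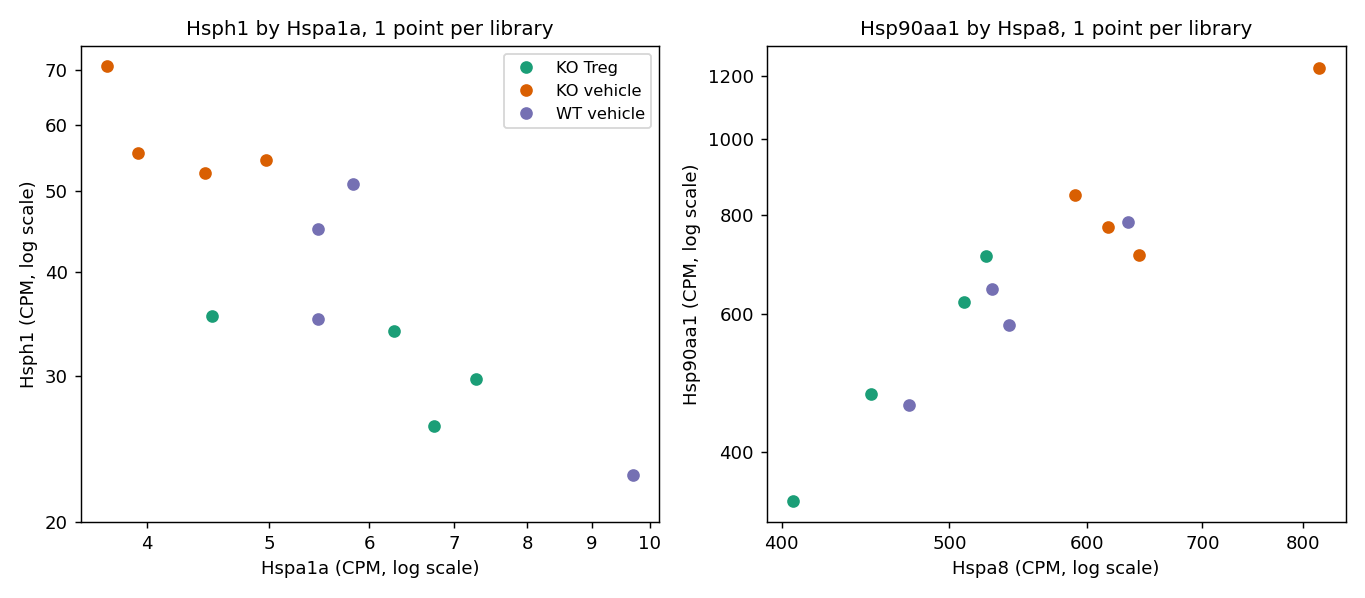
Hsph1 against Hspa1a (left) and Hsp90aa1 against Hspa8 (right), CPM on log axes, 1 point per library coloured by group (KO Treg, KO vehicle, WT vehicle). KO vehicle libraries sit at the upper left of the panel of Hsph1 and Hspa1a, and WT vehicle library 3 at its lower right, with 9.70 CPM of Hspa1a and 22.8 CPM of Hsph1.

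Among 9618 genes of at least 5 CPM on average, the 5 whose log2 CPM was most like the mean standardised profile of the 10 members over the 12 libraries were Lyar (r = 0.925), Fam149a (0.923), Kdr (0.916), Vimp (0.913) and Mpeg1 (0.900). Hspa1a and Hspa1b, whose r with most other members was below 0, enter this mean with the same weight as the rest, so it does not describe each member. Kdr, a receptor for vascular endothelial growth factor, was at 204 to 301 CPM in KO Treg, 298 to 378 CPM in KO vehicle and 225 to 337 CPM in WT vehicle. Most like Hspa1a were Lum (r = 0.923), Sox9 (0.919) and Car11 (0.896). Lum, a proteoglycan of the collagen matrix, was at 46.9 to 100.5 CPM in KO Treg, 30.9 to 39.4 CPM in KO vehicle and 58.9 to 129 CPM in WT vehicle. Most like Hspe1 were Vps37a (r = 0.909), Ung (0.900) and Rab2a (0.892). They are the nearest of all candidates, listed as a description.

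Of the regulators, Hsf1, the transcription factor that binds heat shock elements, was at 1.09 to 2.19 CPM in KO Treg, 1.71 to 2.03 CPM in KO vehicle and 1.61 to 4.05 CPM in WT vehicle, with 7 to 32 counts per library. It did not pass (edgeR log2 fold change −0.64 in KO vehicle against WT vehicle, adjusted p = 0.460). Hsf2 and Hsbp1, which binds HSF1, differed by at most 0.10 on the log2 scale in all 3 comparisons.

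Among the lists of related chaperones, 0 genes passed the edgeR test or limma voom in any comparison, and those that DESeq2 called are named with their list. Of 22 other genes of the cytosolic HSP70 system, 12 were above 0 and 10 below in KO vehicle against WT vehicle. At an unadjusted p under 0.05, 3 were higher and 1 lower, where 6.98 and 5.45% of all genes were. In KO Treg against KO vehicle 8 were above 0 and 14 below. Here 0 were higher and 2 lower at that level, where 3.69 and 5.08% of all genes were. Hspa12a, a divergent HSP70, averaged 84.2 CPM in KO vehicle and 49.8 CPM in WT vehicle without overlap (log2 fold change 0.76, edgeR adjusted p = 0.175). Bag3, an HSP70 nucleotide exchange factor that HSF1 induces, averaged 45.1 CPM in KO Treg, 56.0 in KO vehicle and 42.7 in WT vehicle, and the groups overlapped. The median log2 fold changes of this list were −0.056 in KO Treg against KO vehicle and 0.043 in KO vehicle against WT vehicle, near those of all genes.

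Of 13 HSP90 co-chaperones, 5 were above 0 and 8 below in both of these comparisons. At an unadjusted p under 0.05, 1 was lower in KO Treg against KO vehicle, where 5.08% of all genes were. In KO vehicle against WT vehicle 0 were at that level, where 6.98% of all genes were higher and 5.45% lower. Ahsa1, the activator of the HSP90 ATPase, was at 90.2 to 107 CPM in KO Treg, 114 to 142 CPM in KO vehicle and 83.9 to 117 CPM in WT vehicle, and KO Treg lay below KO vehicle without overlap (log2 fold change −0.40, edgeR adjusted p = 0.375). Of 10 other mitochondrial chaperones and proteases, 5 were below 0 in KO Treg against KO vehicle and 9 in KO vehicle against WT vehicle, with 0 at an unadjusted p under 0.05. Lonp1, the mitochondrial matrix protease, averaged 151 CPM in KO vehicle and 181 CPM in WT vehicle (log2 fold change −0.25, edgeR adjusted p = 0.401). Of 8 subunits of the cytosolic chaperonin CCT, 7 were below 0 in KO Treg against KO vehicle and 3 in KO vehicle against WT vehicle, with medians of −0.085 and 0.034 and 0 at an unadjusted p under 0.05.

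Of the other small heat shock proteins, all 5 that were tested were above 0 in KO Treg against KO vehicle (median 0.23), where Hspb1 was below 0, and 4 of the 5 were below 0 in KO vehicle against WT vehicle (median −0.22). Hspb2 was at 3.88 to 5.21 CPM in KO Treg, 2.07 to 3.66 CPM in KO vehicle and 4.18 to 6.65 CPM in WT vehicle, so that KO Treg lay above KO vehicle and KO vehicle below WT vehicle, both without overlap (edgeR adjusted p = 0.461 and 0.108). DESeq2 called Hspb2 in KO vehicle against WT vehicle (adjusted p = 0.0311), where it called 1.93% of the genes it gave an adjusted p. Most muscle markers lay on the same side of 0 as most of these small heat shock genes. All 9 smooth muscle genes were below 0 in KO vehicle against WT vehicle (median −1.46). Of these, 5 were at an unadjusted p under 0.05, where 5.45% of all genes were lower. In KO Treg against KO vehicle 8 of 9 were above 0 (median 0.50). Of 7 listed skeletal muscle genes, none at 0, 6 were tested. Of these, 5 were below 0 in KO vehicle against WT vehicle (median −1.58) and 5 above 0 in KO Treg against KO vehicle (median 0.29). The exception in both was Acta1, the most abundant of the 6 (log2 fold change 0.79 and −1.35, edgeR adjusted p = 0.666 and 0.577). The sum of the 7 was 28.8 to 95.1 CPM in KO Treg, 97.8 to 142.5 CPM in KO vehicle and 18.9 to 154 CPM in WT vehicle. The part of muscle in the small heat shock protein values was not tested.

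Chaperones of the endoplasmic reticulum (ER), which fold secreted proteins and belong to another stress pathway, lay on the same side of 0 as Hsph1 in most cases. All 15 were below 0 in KO Treg against KO vehicle with a median of −0.42, 7 of them without overlap (3.03% of all genes) and 8 at an unadjusted p under 0.05 (5.08%), and in KO vehicle against WT vehicle 13 were above 0 with a median of 0.29. Their summed level was 3101 to 3775 CPM in KO Treg, 4325 to 5593 CPM in KO vehicle and 3079 to 4565 CPM in WT vehicle. Pdia4, a disulfide isomerase, averaged 106 CPM in KO Treg, 158 in KO vehicle and 120 in WT vehicle (edgeR adjusted p = 0.270 for KO Treg against KO vehicle and 0.278 for KO vehicle against WT vehicle). DESeq2 called 2 of the 15, Hspa5 and Hsp90b1, in KO Treg against KO vehicle at an adjusted p under 0.05. Of all genes it gave an adjusted p, it called 0.38% in this comparison. The 10 members summed to 4141 to 5438 CPM in KO Treg, 5576 to 7491 CPM in KO vehicle and 4843 to 6536 CPM in WT vehicle, and KO Treg and KO vehicle did not overlap in either sum. For the members the nearest values were 5438 and 5576 CPM. Abundant genes weigh most in such a sum, and the most abundant members, Hsp90ab1 and Hspd1, each overlapped between these groups.

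Immediate early genes, which tissue handling and growth factors raise within minutes, were listed alongside. Of 17 tested, 15 were below 0 in KO Treg against KO vehicle (median −0.28) and 10 above 0 in KO vehicle against WT vehicle (median 0.23). Their sum, with no gene of the list at 0, was 402 to 497 CPM in KO Treg, 469 to 598 CPM in KO vehicle and 381 to 475 CPM in WT vehicle. Dusp1, a phosphatase of MAP kinases, was at 55.0 to 62.7 CPM in KO vehicle and 33.6 to 46.0 CPM in WT vehicle without overlap (log2 fold change 0.62, edgeR adjusted p = 0.0836). DESeq2 called Dusp1 (adjusted p = 0.0125), where it called 1.93% of the genes it gave an adjusted p. Fos, a subunit of the factor AP-1, averaged 2.63 CPM in KO Treg, 5.98 CPM in KO vehicle and 2.59 CPM in WT vehicle, with overlap (edgeR adjusted p = 0.356 for KO Treg against KO vehicle). The part of tissue handling in the chaperone values was not tested.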

How the data were processed

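Total RNA, column-extracted with a DNase step per the labels' protocols, was sequenced with a QuantSeq 3' kit. Raw counts per gene were deposited by the authors, 1 table per library. The submitters' processing notes name TopHat2 2.1.1, HTSeq 0.6.1, BWA 0.7.12, SAMtools 1.3.1 and mm10, but no role, annotation or strand setting. Genes kept by filterByExpr (12175 of 20632) were scaled by TMM and tested with edgeR 4.0.16 (quasi-likelihood, robust, 3 groups in 1 fit), with Benjamini-Hochberg adjustment over all and a threshold of 0.05. The SE is the log2 fold change over the square root of F. Log2 CPM used a prior count of 2, and 3 counts are 0.231 to 0.540 CPM (counting error only). Each library, separately numbered in the labels, was taken as 1 mouse, and p-values measure the spread between these libraries. Alternatives were other scalings and filters, DESeq2 1.42.0, limma 3.58.1 voom, fits of 8 libraries, the number series as covariate or the lower alone, and each library left out; leaving out libraries with brown fat or placental transcripts was added after seeing the data. Members and lists were chosen with earlier results of these data known, in which ER chaperones and immediate early and heat shock genes already stood out, so those patterns are no independent support. Named genes were the members, the 3 lowest p per list and comparison, and those most alike in profile; only some are printed. Transcript ends and overlaps come from GENCODE M21. The edgeR fit was also run on simulated counts with known changes in KO vehicle against WT vehicle. Those counts held no libraries with transcripts of other tissue and no number series, so they do not check the effect of either.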

Additional observations from a re-analysis of the deposited data

Results flagged for a closer look

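In 30 groups of 4 libraries (10 genes in 3 groups), 4 held a library whose gap to the nearest other exceeded Dixon's 95% critical value, taken over the group's range. Chance flags about 1 in 20 groups. Hspa1a was at 9.70 CPM in WT vehicle library 3, against 5.47 to 5.83 CPM in the other WT vehicle libraries. Hspa1b was at 3.11 CPM (20 counts) in KO Treg library 3, against 5.46 to 5.81 CPM in the other KO Treg libraries. Hsph1 was at 70.6 CPM in KO vehicle library 2, against 52.5 to 55.5 CPM in the other KO vehicle libraries. Dnajb1 was at 30.7 CPM in KO Treg library 1, against 39.2 to 40.3 CPM in the other KO Treg libraries.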

How the results depend on the processing

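The number of members called was 0 in all 3 comparisons under all 24 alternatives, except that DESeq2 called 1 (Hsph1) in KO Treg against KO vehicle. The count of all genes called moved more. In KO vehicle against WT vehicle it was 34, and 250 by DESeq2, 0 with the number series as covariate, 0 without the libraries of high Ucp1, 3 without those of placental transcripts, and 1 to 125 with 1 library left out. In KO Treg against KO vehicle it was 1, and 54 by DESeq2, 0 with RLE scaling, without robust fitting, in 8 libraries alone, with the covariate, in the lower series, without the Ucp1 or the placental libraries, and with any 1 library left out. In KO Treg against WT vehicle it was 0, and 1 by DESeq2.

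In KO vehicle against WT vehicle, fold changes near 0 turned sign. Hspd1 gave 0.0097 by limma voom, 0.043 without the Ucp1 libraries, and −0.16 to 0.088 with 1 library left out (above 0 without KO vehicle 4, WT vehicle 1 or WT vehicle 4). Hspb1 gave 0.039 with the covariate, 0.34 in the lower series, and −0.32 to 0.19 with 1 library left out (above 0 without WT vehicle 3). Hsp90ab1 gave −0.032 without the Ucp1 libraries, and −0.018 (without KO vehicle 2) to 0.195 with 1 library left out. In KO Treg against WT vehicle, Hspa1a gave 0.030 by limma voom, 0.26 in the lower series, and −0.15 to 0.16 with 1 library left out (above 0 without KO Treg 3 or WT vehicle 3). Dnajb1 gave −0.049 in the lower series, −0.011 without the placental libraries, and −0.013 to 0.11 with 1 library left out (below 0 without KO Treg 2 or 4), and Hspb1 0.0071 in the lower series. In KO Treg against KO vehicle no member turned sign. The causes were not tested.

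Number series and group are partly confounded, and no scaling moved the median of all genes by more than 0.0143 on the log2 scale. Of the 45 relations, 30 had r above 0, and 27 within groups. No paired analysis was possible because the replicate numbers follow accession order and pair no animals.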
